A study of Glycine max with 12 samples.

Results

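Glycinin is the legumin-type globulin of soybean seed and one of its main storage proteins, encoded by a small gene family whose subunit genes are named Gy. The genes were chosen by identifier, for the subunits Gy1, Gy3, Gy4, Gy5 and Gy7, among the 52872 genes of the deposited count table. Of these 5 identifiers, 4 had a row in the table, Glyma.19G164900 (Gy3), Glyma.10G037100 (Gy4), Glyma.13G123500 (Gy5) and Glyma.19G164800 (Gy7), and all 4 passed the filter on low counts. The identifier given for Gy1, Glyma.03G163500, had no row. In its place in the numbering the table held 2 identifiers, Glyma.03G163467 and Glyma.03G163533, which no source used here ties to a subunit. They are described beside the 4 subunit genes by identifier and are not counted among them.

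Messenger RNA was measured in developing seed collected 35 days after flowering, in genotype 93Y21, a soybean line. The 12 libraries were 3 of transgenic event e15, 3 of event e19 and 6 of nulls. An event is a separate transformation line, and both carry a construct with the GmUBQ promoter. The series title names GmCGS2 with a deletion as the protein made. Cystathionine gamma-synthase, the enzyme that GmCGS2 encodes, acts in methionine synthesis. The sample titles mark the events as HOM with the line codes 15A and 19A, and give all nulls the line code 33A, so that a trait of the null line and an effect common to the events cannot be told apart. Whether the replicates came from separate plants is not given, so p-values reflect no more than the spread among libraries, which may be technical.

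Glycinin precursors are made on the endoplasmic reticulum, where the signal peptide is removed and trimers form. In the storage vacuole the precursor is cut into an acidic and a basic chain that stay joined by a disulfide bond, and the trimers then pair to hexamers. Gy1, Gy2 and Gy3 make up the subunits of group I, which are richer in sulfur amino acids than Gy4 and Gy5 of group II. Gy7 is a diverged member that lies in tandem with Gy3.

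In RefSeq's annotation of Glycine_max_v4.0, 6 genes stand under the symbols GY1, GY2, GY3, GY4, GY5 and GY7. It could be matched by symbol only, since 0 of the Glyma identifiers occur in it. It places GY2 at chr3:38993483-38996274 and GY1 next to it at chr3:38999132-39001774. GY7 lies at chr19:43001545-43003783 and GY3 at chr19:43009579-43015868. GY4, with A5A4B3 as a synonym, spans chr10:3243208-3246033, and GY5, with the synonym GLYA3B4, spans chr13:22691736-22695245. The spans include introns, and no transcript lengths were used here, so levels below are not divided by length and are not compared between the subunits. No sequences of the genes or their proteins are shown.

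Library totals ran from 21988821 to 22849075 counts in e15, from 19207771 to 21900491 in e19 and from 21357512 to 23276877 in the nulls. The lowest was that of e19 replicate 3. The nulls fell into 2 sets over the whole table, replicates 4 to 6 and replicates 1 to 3, although the labels describe them alike. The sets were recognised in these data, so a test between them describes the libraries and is no independent evidence. No 2 libraries of a group were alike within counting noise, the mean squared difference being at least 1.76 times that of counting alone. The level of the targeted gene was not checked, because no source used here pairs it with an identifier.

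The mRNAs of Gy3, Gy4, Gy5 and both chromosome 3 identifiers were abundant in all libraries. Ranked by mean CPM (the count relative to the library total after TMM scaling, not divided by length, so that a longer transcript ranks higher) among all genes, Glyma.03G163533 was number 2, Glyma.03G163467 number 3, Gy4 number 6, Gy5 number 8 and Gy3 number 20. Gy7 was number 10820, at a mean of 10.6 CPM. The abundance of Gy3, Gy4 and Gy5 mRNA does not go against the labelled tissue, developing seed. Gy3, Gy4, Gy5 and both chromosome 3 identifiers had fractional counts in all 12 libraries. Fractional counts can arise where a read is divided among near-identical genes, so the levels of these genes are uncertain to that extent. Gy7 had whole counts in all 12.

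The 4 subunit genes took 6.72%, 6.47% and 6.44% of all counts in e15 replicates 1 to 3 and 7.71%, 7.07% and 6.29% in e19 replicates 1 to 3. In the nulls they took 6.81%, 6.81% and 6.35% in replicates 4 to 6 and 5.04%, 5.19% and 5.22% in replicates 1 to 3. The means were 6.54 ± 0.156% in e15, 7.02 ± 0.709% in e19 (SD, n = 3 each) and 5.90 ± 0.843% in the nulls (SD, n = 6). The event libraries overlapped with nulls 4 to 6 and lay above nulls 1 to 3. The chromosome 3 identifiers together took 12.1 ± 0.177% in e15, 11.7 ± 0.494% in e19 (n = 3 each) and 10.5 ± 0.760% in the nulls (n = 6). All 6 genes together made up 18.6 ± 0.325% of the counts in e15, 18.7 ± 1.16% in e19 and 16.4 ± 1.59% in the nulls. The widest 95% Wilson interval of any such share in a library was 0.0339 percentage points, which covers counting error only. In tissue libraries of this kind, fewer cells of a type and less RNA per cell cannot be told apart. No test was made of these sums, because the genes were chosen with results known.

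**Figure D1:**
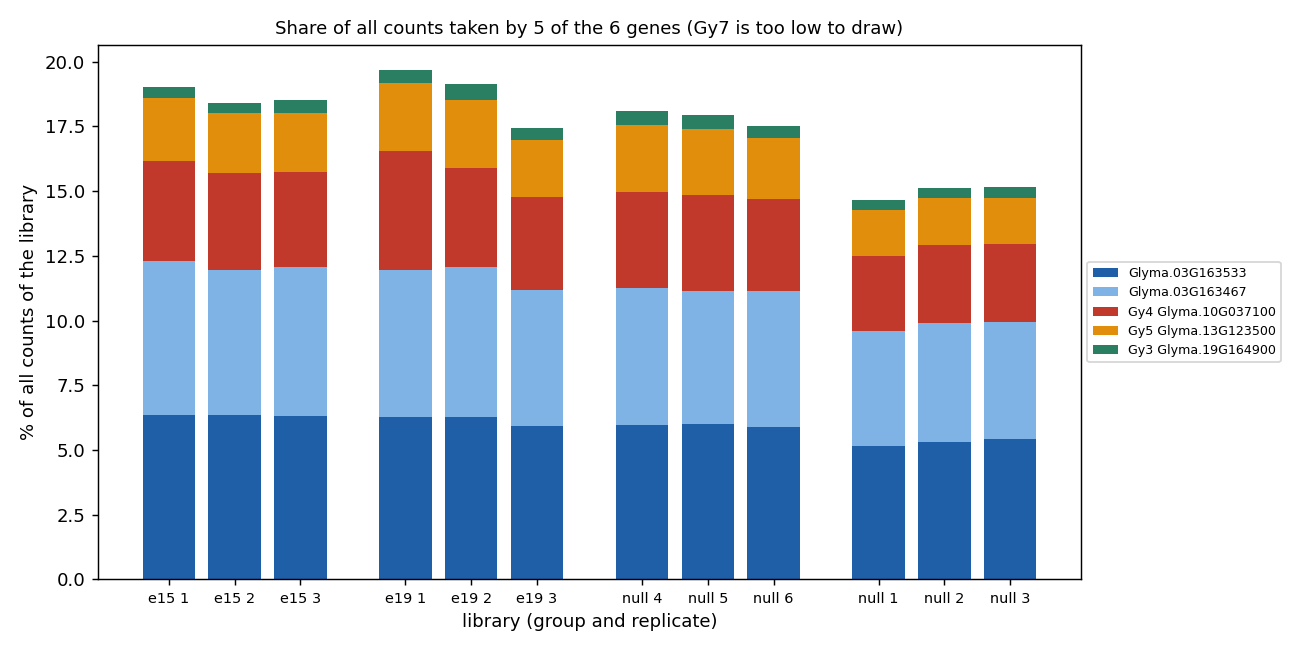
Percent of all counts of a library taken by 5 of the 6 genes, stacked, for each of the 12 libraries (Gy7 is left out, being too low to draw). The stacks of nulls 1 to 3 reach 14.6% to 15.1%, and those of the other 9 libraries 17.4% to 19.7%.

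Gy4 encodes a group II subunit. It stood at 40282, 39300 and 36509 CPM in e15 replicates 1 to 3 and at 48954, 42261 and 35215 CPM in e19 replicates 1 to 3. The nulls had 38506, 37805 and 36699 CPM in replicates 4 to 6 and 25541, 27288 and 27196 CPM in replicates 1 to 3. Each event overlapped with the nulls as a whole, and nulls 1 to 3 were the lowest 3 of the 12 libraries. Of all genes tested, 12.9% had all e15 libraries above all of nulls 1 to 3, and 14.6% had all of nulls 4 to 6 above them. For e19 this share was not computed, nor was the share of genes with nulls 1 to 3 below every other library.

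Gy5, the other group II subunit gene, had 25313, 23980 and 22646 CPM in e15 replicates 1 to 3, and 28164, 28966 and 21625 CPM in e19 replicates 1 to 3. It had 27389, 25799 and 24345 CPM in nulls 4 to 6, against 15855, 16639 and 16028 CPM in nulls 1 to 3. Again nulls 1 to 3 lay below every other library, while the events and nulls 4 to 6 overlapped. The shares over all genes given with Gy4 are for e15 and for nulls 4 to 6, each against nulls 1 to 3. None was computed for nulls 1 to 3 below every other library.

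Gy3, of group I, had 4553, 4142 and 4628 CPM in e15 replicates 1 to 3 and 5306, 6681 and 4772 CPM in e19 replicates 1 to 3. In the nulls it had 5424, 5466 and 4674 CPM in replicates 4 to 6 and 3416, 3496 and 3646 CPM in replicates 1 to 3. The e15 libraries lay between the null sets without overlapping either, and below all e19 libraries. Of all genes tested, 12.9% had all e15 libraries above nulls 1 to 3, 7.55% below nulls 4 to 6 and 6.56% below e19.

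Gy7, the weakly expressed tandem neighbour of Gy3, had 9.98, 6.39 and 9.98 CPM in e15 replicates 1 to 3 and 15.1, 14.1 and 10.7 CPM in e19 replicates 1 to 3. It had 12.6, 14.9 and 11.7 CPM in nulls 4 to 6, against 8.04, 6.46 and 7.17 CPM in nulls 1 to 3. The e15 libraries lay below nulls 4 to 6, as did those of 7.55% of all genes tested, and overlapped with nulls 1 to 3. The e19 libraries overlapped with nulls 4 to 6 and lay above nulls 1 to 3, for which no share over all genes was computed. These values rest on 135 to 318 counts per library, so their relative counting error is larger than that of the other genes.

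Of the chromosome 3 identifiers, Glyma.03G163467 had 62066, 58340 and 56930 CPM in e15 replicates 1 to 3 and 60870, 63785 and 51329 CPM in e19 replicates 1 to 3. Its nulls lay between 39717 and 55609 CPM, below all e15 libraries, as in 2.33% of all genes tested. Glyma.03G163533 had 66208, 66055 and 62662 CPM in e15, 67163, 69198 and 58018 CPM in e19, and 45752 to 62510 CPM in the nulls. For both, e19 replicate 3 was the lowest event library and lay within the range of the nulls, and the other 5 event libraries lay above it.

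**Figure D2:**
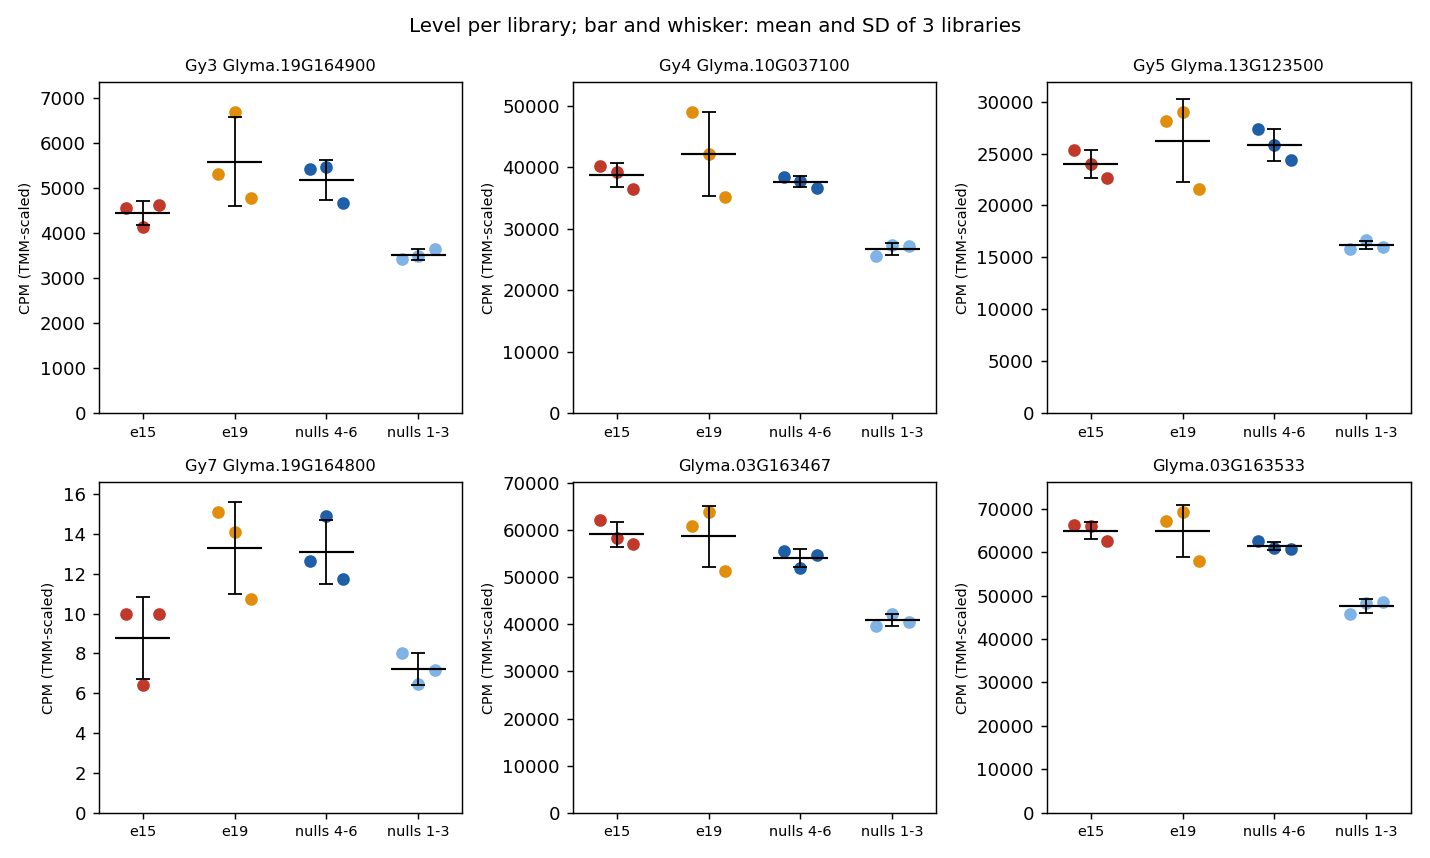
TMM-scaled CPM of each gene (vertical axes from 0, a scale for each panel) in the libraries of e15, e19, nulls 4 to 6 and nulls 1 to 3; points are libraries, bars and whiskers the mean and SD of 3. Nulls 1 to 3 lie lowest for every gene except Gy7, where e15 replicate 2, at 6.39 CPM, is the lowest library.

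In e15 against the nulls, none of the 4 subunit genes passed the test (0 of 4, edgeR's quasi-likelihood test with Benjamini-Hochberg adjustment over 32115 genes). Of all genes tested, 0.754% were called. DESeq2 also called 0 of the 4, and 340 of all genes. Of the 4, 0 had an unadjusted p under 0.05 in edgeR, against 9.11% of all genes. Gy4 averaged 38697 ± 1958 CPM in e15 (n = 3) and 32172 ± 6081 CPM in the nulls (SD, n = 6), which came to 0.27 ± 0.14 in log2 change (SE, adjusted p = 0.603). Gy5 averaged 23980 ± 1333 CPM in e15 and 21009 ± 5390 CPM in the nulls, which came to 0.19 ± 0.18 in log2 change (SE, adjusted p = 0.825). Gy3 averaged 4441 ± 262 CPM in e15 and 4354 ± 959 CPM in the nulls, with a log2 change of 0.03 whose 95% interval ran from -0.32 to 0.38. Its sign turned, to -0.04, when library totals alone were used in place of TMM factors. For Gy7 the log2 change was -0.20 ± 0.30 (SE, adjusted p = 0.901), and -0.016 without e15 replicate 2, its lowest library. The median over the 4 was 0.11, against 0.00 over all genes. The nulls in this comparison hold both sets.

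Of the 6 genes, the 2 chromosome 3 identifiers had all e15 libraries above all nulls, as had 2.33% of all genes tested. Glyma.03G163467 averaged 59112 ± 2654 CPM in e15 (n = 3) and 47466 ± 7416 CPM in the nulls (SD, n = 6), which came to 0.32 ± 0.12 in log2 change (SE, adjusted p = 0.371). Glyma.03G163533 averaged 64975 ± 2005 CPM in e15 and 54489 ± 7675 CPM in the nulls, which came to 0.25 ± 0.12 in log2 change (SE, adjusted p = 0.504). Both had an unadjusted p under 0.05, as did 9.11% of all genes, and neither was called.

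In e19 against the nulls, 0 of the 4 subunit genes were called by edgeR and 0 by DESeq2. Over all genes, edgeR called 0.0747% and DESeq2 called 35 genes. All 4 had positive log2 changes, with a median of 0.37 against -0.01 over all genes, and 2 of them, Gy4 and Gy3, had an unadjusted p under 0.05 (7.04% of all genes). Gy4 averaged 42144 ± 6870 CPM in e19 (n = 3) and 32172 ± 6081 CPM in the nulls (SD, n = 6), which came to 0.39 ± 0.14 in log2 change (SE, adjusted p = 0.657). Gy3 averaged 5586 ± 985 CPM in e19 and 4354 ± 959 CPM in the nulls, which came to 0.36 ± 0.16 in log2 change (SE, adjusted p = 0.702). Gy5 had a log2 change of 0.32 ± 0.18 (SE, adjusted p = 0.749) and Gy7 one of 0.40 ± 0.28 (SE, adjusted p = 0.807). The chromosome 3 identifiers had log2 changes of 0.31 (Glyma.03G163467) and 0.25 (Glyma.03G163533), which were not called either. The values moved in both directions with single e19 libraries. Without e19 replicate 1 the log2 change was 0.27 for Gy4, 0.40 for Gy3, 0.27 for Gy5 and 0.30 for Gy7. Without e19 replicate 2 it was 0.39 for Gy4, 0.21 for Gy3, 0.24 for Gy5 and 0.36 for Gy7, and without e19 replicate 3 it was 0.50, 0.46, 0.44 and 0.53 in the same order. In each case 0 of the 4 were called.

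The mean of both events against the nulls gave the same count, 0 of 4, with 0.255% of all genes called. DESeq2 called 0 of the 4 as well, and 157 of all genes. The log2 change was 0.33 ± 0.11 for Gy4 (SE, adjusted p = 0.358), 0.26 ± 0.15 for Gy5, 0.19 ± 0.13 for Gy3 and 0.10 ± 0.24 for Gy7. Of the 4, Gy4 had an unadjusted p under 0.05, as did 9.34% of all genes.

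Set against each other, e15 and e19 did not differ past the threshold in any of the 4 subunit genes (0 of 4 by edgeR and by DESeq2), where edgeR called 0.299% of all genes. None of the 4 had an unadjusted p under 0.05 (0 of 4, against 6.65% of all genes). The log2 difference, e15 over e19, was negative for all 4. It was -0.33 ± 0.19 for Gy3 (SE, adjusted p = 0.829) and -0.60 ± 0.34 for Gy7 (SE, adjusted p = 0.832), whose e15 libraries lay below all e19 libraries, as did those of 6.56% of all genes tested. The 95% intervals ran from -0.74 to 0.08 for Gy3 and from -1.35 to 0.16 for Gy7. For Gy4 the difference was -0.12 with an interval of -0.46 to 0.21, and for Gy5 it was -0.13 with an interval of -0.59 to 0.33. The chromosome 3 identifiers differed by 0.01 (Glyma.03G163467) and 0.00 (Glyma.03G163533), with intervals of -0.28 to 0.30 and -0.27 to 0.28. Single e19 libraries moved the differences of Gy4, Gy5 and Gy3 by over 1.5 times. That of Gy7 stayed between -0.73 and -0.41 whichever library was left out. For Gy4 the difference came to -0.0016 without e19 replicate 1 and to -0.24 without e19 replicate 3. For Gy5 it came to -0.077, -0.054 and -0.25 without e19 replicate 1, 2 or 3, and for Gy3 to -0.18 without e19 replicate 2. Without e19 replicate 3 the signs turned for Glyma.03G163467 (-0.08) and Glyma.03G163533 (-0.07), and both also turned without e15 replicate 1.

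**Figure D3:**
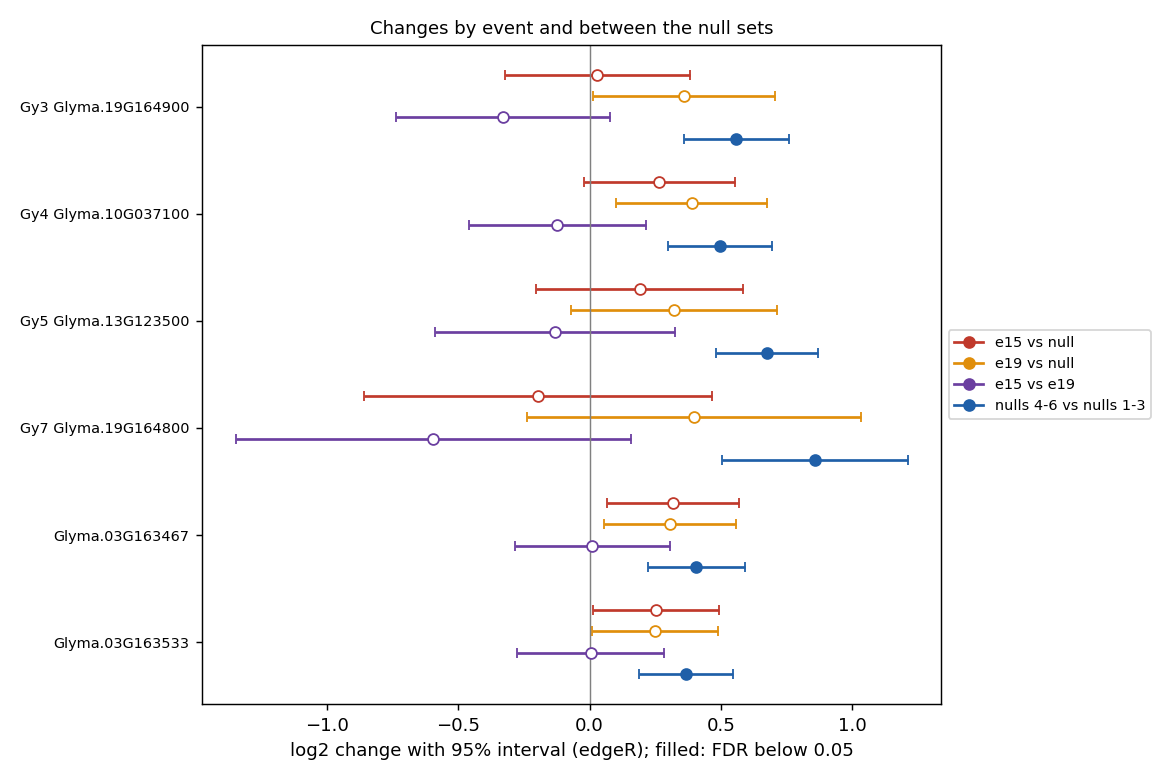
Log2 change (horizontal axis) with its 95% interval for the 4 subunit genes and the 2 chromosome 3 identifiers, for e15 against nulls, e19 against nulls, e15 against e19 and nulls 4 to 6 against nulls 1 to 3. Filled points passed the threshold of 0.05, and all 6 of them belong to the comparison of the null sets.

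Nulls 4 to 6 were higher than nulls 1 to 3 in all 4 subunit genes (4 of 4 called), where 4.51% of all genes were called higher and 9.59% either way. The median log2 difference was 0.62 over the 4 and 0.00 over all genes. Gy5 averaged 25845 ± 1522 CPM in nulls 4 to 6, against 16174 ± 412 CPM in nulls 1 to 3 (SD, n = 3 each), a log2 difference of 0.68 ± 0.10 (SE, edgeR's adjusted p = 2.33e-05). Gy4 averaged 37670 ± 911 CPM in nulls 4 to 6, against 26675 ± 983 CPM in nulls 1 to 3, a difference of 0.50 ± 0.10 (SE, adjusted p = 0.000889). Gy3 averaged 5188 ± 446 CPM in nulls 4 to 6, against 3519 ± 117 CPM in nulls 1 to 3, a difference of 0.56 ± 0.10 (SE, adjusted p = 0.000322). Gy7 averaged 13.1 ± 1.63 CPM in nulls 4 to 6, against 7.22 ± 0.792 CPM in nulls 1 to 3, a difference of 0.86 ± 0.17 (SE, adjusted p = 0.00410).

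The chromosome 3 identifiers were also higher in nulls 4 to 6, by 0.41 ± 0.09 (SE) for Glyma.03G163467 and 0.37 ± 0.09 for Glyma.03G163533, with edgeR's adjusted p of 0.00341 and 0.00589. The second call was lost without null replicate 1 (adjusted p = 0.0551; the alternatives gave 9.96e-07 to 0.0551). All 6 genes had every library of nulls 4 to 6 above every one of nulls 1 to 3, as had 14.6% of all genes tested. TMM factors were 0.954 to 0.986 in nulls 4 to 6 and 1.095 to 1.124 in nulls 1 to 3, so the size of the difference in CPM depends on the scaling. Which scaling is nearer to the true levels was not tested. With TMM factors taken without the 6 genes, the median of all genes was -0.0015. With library totals alone the median of all genes shifted to -0.20, and the log2 differences were 0.48 for Gy5, 0.30 for Gy4, 0.36 for Gy3 and 0.66 for Gy7, all still called. Of the 20 most abundant genes of the table, 13 were called higher in nulls 4 to 6 and 0 lower (edgeR), with a median of 0.31. Over all genes tested, 4.51% were called higher. The 13 include Gy3, Gy4, Gy5 and both chromosome 3 identifiers, so this count partly repeats the calls given above.

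Each event was also set against each null set, in a fit with the nulls entered as 2 subgroups. The null sets were recognised in these data, and nulls 1 to 3 averaged lower in all 4 subunit genes. Calls against nulls 1 to 3 thus describe the libraries and are no independent evidence. The spread in this fit is that within the sets, so its p-values leave out the shift between them. Against nulls 4 to 6, 0 of the 4 subunit genes were called in e15 (1.17% of all genes were) and 0 in e19 (0.252%). Against nulls 1 to 3, 3 of 4 were called higher in e15 (of all genes, 8.33% were called and 3.67% called higher) and 4 of 4 in e19 (7.23% called and 3.62% called higher). For both events together the count was 0 of 4 against nulls 4 to 6 (0.486% of all genes called) and 4 of 4 higher against nulls 1 to 3 (10.9% called, 4.88% called higher). In e15 against nulls 1 to 3 these were Gy4, with a log2 change of 0.54 ± 0.10, Gy5, with 0.57 ± 0.10, and Gy3, with 0.34 ± 0.10 (SE). EdgeR's adjusted p was 0.000335 for Gy4, 0.000142 for Gy5 and 0.0268 for Gy3, while Gy7 was not called (0.29 ± 0.17, adjusted p = 0.388). In e19 against nulls 1 to 3 the log2 change was 0.66 for Gy4, 0.70 for Gy5, 0.67 for Gy3 and 0.88 for Gy7. Over all alternatives to the comparison with the 6 nulls, adjusted p for the 4 genes ran from 5.91e-05 to 0.999 in e15 and from 1.87e-05 to 0.995 in e19.

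Against nulls 4 to 6 the log2 changes of the 4 genes were of both signs in e15 and above 0 in e19. In e15 the log2 change was 0.04 for Gy4 (95% interval -0.16 to 0.24), -0.11 for Gy5 (-0.30 to 0.09), -0.22 for Gy3 (-0.42 to -0.03) and -0.57 for Gy7 (-0.92 to -0.22). Gy3 and Gy7 had an unadjusted p under 0.05, as did 8.62% of all genes, with adjusted p of 0.477 and 0.162 in edgeR. Both had all e15 libraries below all of nulls 4 to 6, as had 7.55% of all genes tested. In e19 the change was 0.16 for Gy4, 0.02 for Gy5, 0.11 for Gy3 and 0.02 for Gy7, and 0 of the 4 had an unadjusted p under 0.05, against 6.22% of all genes. For Glyma.03G163467 it was 0.13 in e15 and 0.12 in e19, and for Glyma.03G163533 it was 0.08 in both. The events share their nulls in these comparisons, so the values of e15 and e19 are not independent.

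**Figure D4:**
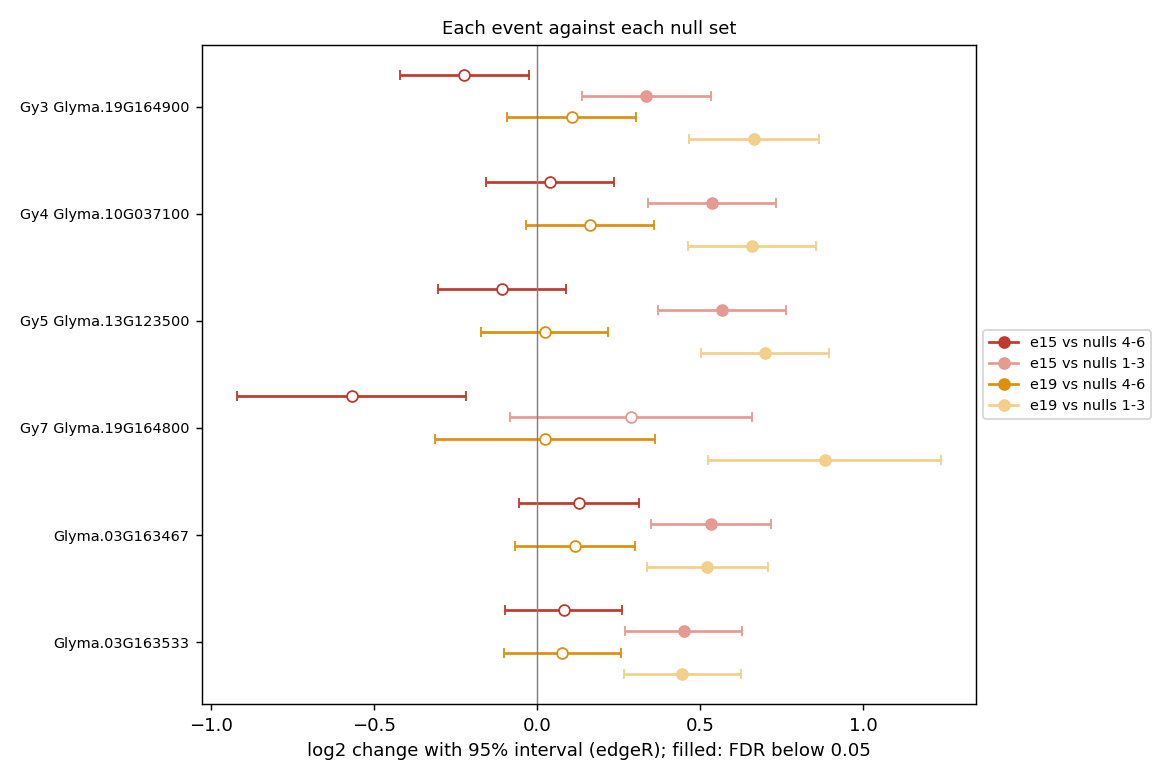
Log2 change (horizontal axis) with its 95% interval for each gene in e15 and in e19, against nulls 4 to 6 and against nulls 1 to 3, from a fit with the nulls as 2 subgroups. Against nulls 1 to 3, 11 of the 12 points are filled (past the threshold of 0.05), and against nulls 4 to 6, 0 of the 12 are.

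The genes did not keep the same proportions in all libraries. Of the summed counts of the 6 genes, Gy5 took 12.5 ± 0.206% in e15, 13.3 ± 0.554% in e19 (SD, n = 3 each) and 13.01 ± 1.16% in the nulls (n = 6). Within the nulls it took 14.0 ± 0.534% in nulls 4 to 6 and 12.003 ± 0.198% in nulls 1 to 3 (n = 3 each), without overlap. Glyma.03G163533 went the other way, with 33.3 ± 0.300% in nulls 4 to 6 and 35.3 ± 0.372% in nulls 1 to 3. Its level itself was higher in nulls 4 to 6, at a mean of 61415 CPM, against 47563 CPM in nulls 1 to 3. The shares are parts of a whole, so a rise in some forces a fall in others. Gy4 took 20.4 ± 0.292% in nulls 4 to 6 and 19.8 ± 0.196% in nulls 1 to 3.

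Gy3 took 2.33 ± 0.184% of the 6-gene sum in e15, 2.83 ± 0.325% in e19 and 2.71 ± 0.183% in the nulls. The e15 libraries, at 2.16% to 2.52%, lay just below the nulls, at 2.53% to 3.005%, and met the lowest e19 library, at 2.52%. The largest share of Gy4, 23.3%, was that of e19 replicate 1, against 20.0% to 20.6% in the other e19 libraries. These shares have no test, since they combine genes chosen with results known. How often shares of other genes separate between groups was not computed.

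**Figure D5:**
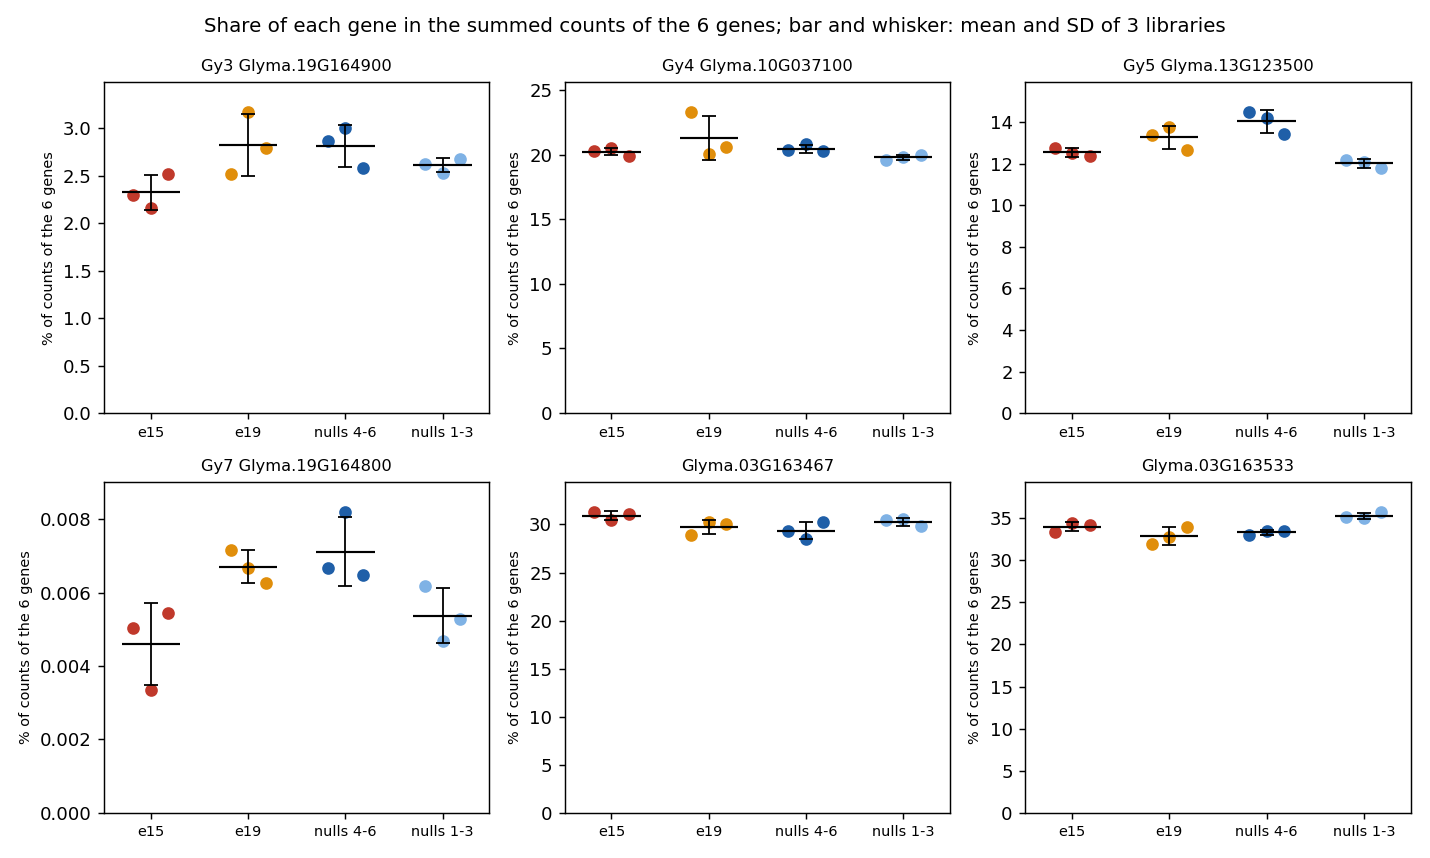
Percent of the summed counts of the 6 genes taken by each gene (vertical axes from 0, a scale for each panel), per library of e15, e19, nulls 4 to 6 and nulls 1 to 3, with the mean and SD of 3. Gy5 takes 14.0% in nulls 4 to 6 and 12.003% in nulls 1 to 3, while Gy3 is lowest in e15, at 2.33%.

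Within a group the spread of the subunit genes differed. The coefficient of variation of Gy4 was 5.06% in e15 and 16.3% in e19, and that of Gy5 was 5.56% in e15 and 15.3% in e19. In the nulls it was 18.9% for Gy4 and 25.7% for Gy5. Within nulls 1 to 3 it was 3.68% for Gy4 and 2.55% for Gy5, and within nulls 4 to 6 it was 2.42% for Gy4 and 5.89% for Gy5. Gy3 had 5.89% in e15 and 17.6% in e19. Glyma.03G163467 had 4.49% in e15 and 11.1% in e19, and Glyma.03G163533 had 3.09% and 9.19%. Gy7 went the other way, with 23.6% in e15 and 17.3% in e19. Its values rest on low counts, 135 to 230 in e15 and 210 to 309 in e19. Its e15 replicate 2 stood at 6.39 CPM, against 9.98 CPM in replicate 1 and in replicate 3. From the lowest to the highest of the 12 libraries, the level spanned 1.92-fold for Gy4, 1.83-fold for Gy5, 1.96-fold for Gy3 and 2.34-fold for Gy7, against 1.61-fold for Glyma.03G163467 and 1.51-fold for Glyma.03G163533.

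The profiles of the genes over the 12 libraries were compared by the root mean square difference of log2 CPM, each profile centred on its own mean, among genes of at least 100 CPM. The chromosome 3 identifiers were nearest to each other (0.05), of 708 candidates. Nearest to Gy4 were Glyma.13G223700 (0.05) and Glyma.13G365800 (0.06), with Glyma.03G163467 at rank 8 and Gy5 at rank 9 (0.09 each). Nearest to Gy5 were Glyma.18G157800 (0.05) and Glyma.16G144100 (0.08), with Gy4 at rank 6. Nearest to Gy3 were Glyma.13G237000 and Glyma.15G152000 (0.09 each), with Gy5 at rank 5 and Gy4 at rank 30. Gy7 was nearest to Glyma.05G166600 (0.19) and Glyma.12G111000 (0.21), and its tandem neighbour Gy3 was at rank 3 of 709 (0.23). The median over candidates was 0.27 for Gy4 and 0.43 for Gy7. All 12 libraries enter each value, including the split of the nulls.

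Apart from the subunit genes and the chromosome 3 identifiers, the genes beside the listed identifiers ranged from 0 counts to the level of Glyma.03G163600, described last. On chromosome 10, both identifiers flanking Gy4 (Glyma.10G037001 and Glyma.10G037200) had 0 counts. On chromosome 13, Glyma.13G123400 beside Gy5 averaged 4.60 CPM in e15, 4.86 CPM in e19 and 4.18 CPM in the nulls. On chromosome 19, Glyma.19G165000, next to Gy3 on the side away from Gy7, averaged 4.14 CPM in e15, 3.56 CPM in e19 and 4.17 CPM in the nulls. It was higher in nulls 4 to 6 than in nulls 1 to 3, by 0.50 on the log2 scale (edgeR's adjusted p = 0.0232), where 4.51% of all genes were called higher. Outside the subunit genes and the chromosome 3 identifiers, no other tested flanking gene was called between the null sets. On chromosome 3, Glyma.03G163600 averaged 60.7 CPM in e15, 68.9 CPM in e19 and 58.1 CPM in the nulls and did not pass the threshold between the null sets (adjusted p = 0.0889). None of the tested flanking genes was called in e15 or in e19 against the nulls.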

How the data were processed

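The authors deposited 1 table of estimated counts of reads per gene, with a column per library. No source used here names the aligner, the counting program or its use of strand, and the table carries the tag W82a4v1. Per the labels' protocols, mRNA was isolated with oligo(dT) beads, and libraries were made with a stranded kit and read as single reads of 100 bp. Fractional values (tolerance 5e-04) occurred in 28752 of the 52872 genes, and 0 columns were left out. Counts were rounded, filtered with filterByExpr (32115 genes kept), scaled with TMM and tested in edgeR 4.0.16 under R 4.3.3, with the robust form of its quasi-likelihood test. The model had 1 mean for each group and took in the 12 libraries together. For the null sets, and for each event against each of them, the nulls entered the model as 2 subgroups. Genes were called at a Benjamini-Hochberg adjusted p below 0.05 over all tested genes. Standard errors came from the log2 change and the F statistic. CPM used TMM-scaled totals. DESeq2 1.42.0, other scalings, no filter, single libraries left out and a replicate block were tried. The genes named are the 5 listed subunits, the 2 identifiers on each side of them and the 2 genes of at least 100 CPM with the nearest profile. Lists by gene description (other storage proteins, processing enzymes, maturation factors, leaf genes) were not used, because 0 identifiers matched RefSeq. Members and lists were chosen with earlier results of these data known.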

Additional observations from a re-analysis of the deposited data

How the results depend on the processing

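Of 600 values of single genes under alternatives, 540 kept their direction and side of the threshold, 42 passed it only under the alternative, 1 lost it and 17 changed sign. Deviations of same-numbered libraries from their group means had r from -0.18 to 0.30, best with their own number in 5 of 18 checks. Checks with the nulls cannot decide on pairing, because nulls 1 to 3 share the shift of their set from the mean of all nulls. Between e15 and e19, r ran from -0.046 to 0.0080, best with the own number in 0 of 3 checks each way. The labels do not say that a number marks a shared plant or day, so the numbers were not taken to pair libraries. With the replicate block, in which nulls 4 to 6 share no number with an event, 2350 genes were called in e15 against 242, 1945 in e19 against 24, 3073 for both events against 82 and 292 for e15 against e19 instead of 96. The subunit genes called were then 2 in e15, 4 in e19 and 4 for both events, and Gy7 had a log2 change of 0.28 in e15.

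In the model with the nulls as 2 subgroups, which keeps all 12 libraries, 377, 81 and 156 genes were called against nulls 4 to 6 in e15, e19 and both events, and 2676, 2322 and 3501 against nulls 1 to 3, with 3, 4 and 4 subunit genes. Against nulls 4 to 6 the sign turned in e15 for Gy3 (-0.22) and Gy5 (-0.11), and for both events for Gy3 (-0.059), Gy5 (-0.043) and Gy7 (-0.27). Against nulls 1 to 3 Gy7 turned to 0.29 in e15. With the nulls split into 2 subgroups whose means were averaged, an alternative chosen after seeing the data, 888, 148, 723 and 341 genes were called in e15, e19, both events and e15 against e19, with 3 subunit genes in e19 and 2 for both events. DESeq2 called 157 genes for both events. Between the null sets, 7495 genes were called with library totals alone (513 higher, 6982 lower) and 4709 in a fit of the nulls alone, against 3079 (1448 higher, 1631 lower). With library totals alone Gy3 turned to -0.043 in e15, the split for both events was 23 higher and 62 lower, against 36 and 46, and the median of all genes lay at -0.13 in e19, -0.11 for both events and -0.20 between the null sets. The difference of the null sets in the summed share of the 4 genes was 1.504 percentage points, and 1.70 with the counts outside these genes as denominator. The causes were not tested.

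Leaving out single libraries gave 82 to 268 genes in e15 (the lowest 3 without e15 replicate 3, 1 or 2, at 82, 106 and 129), 17 to 26 in e19, 53 to 107 for both events (53 without null replicate 1 and 53 without e15 replicate 3), 67 to 101 for e15 against e19 and 1694 to 3595 between the null sets (1922, 1913, 1793 and 1694 without null replicates 1, 2, 3 and 4). The subunit genes called numbered 0 in each event comparison and 4 between the null sets whichever library was left out. The share difference between the null sets ranged from 1.42 to 1.66. Gy3 in e15 ranged from -0.031 to 0.10 and was below 0 without null replicate 1, 2 or 3. Gy7 in e15 ranged from -0.30 to -0.016, the second without e15 replicate 2, and was -0.057 without null replicate 5. Gy7 for both events ranged from -0.0017, without null replicate 2, to 0.24. Between the events Glyma.03G163467 ranged from -0.077 to 0.075, below 0 without e15 replicate 1 or e19 replicate 3, and Glyma.03G163533 from -0.070 to 0.054, below 0 without e15 replicate 1, e15 replicate 2 or e19 replicate 3.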

Other observations

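Per count of Gy4, the e15 libraries held 0.620 ± 0.00913 counts of Gy5, the e19 libraries 0.625 ± 0.0558 (SD, n = 3 each) and the nulls 0.646 ± 0.0470 (n = 6). Within the nulls the ratio stood at 0.686 ± 0.0241 in replicates 4 to 6, against 0.607 ± 0.0159 in replicates 1 to 3, without overlap. The e15 libraries, whose levels of both genes overlapped with nulls 4 to 6, had ratios of 0.610 to 0.628. These lay below the 0.663 to 0.711 of nulls 4 to 6 and overlapped with the 0.589 to 0.621 of nulls 1 to 3. The e19 libraries, at 0.575 to 0.685, overlapped with both null sets. How many other pairs of genes separate in this way was not computed. For Gy7, 1.96 ± 0.364 counts were found per 1000 counts of Gy3 in e15, 2.40 ± 0.392 in e19 and 2.29 ± 0.331 in the nulls. Counts of Glyma.03G163467 per count of Glyma.03G163533 came to 0.910 ± 0.0271 in e15, to 0.904 ± 0.0186 in e19 and to 0.870 ± 0.0242 in the nulls. Of 15 sets of null values searched for a lone library far from the others (levels of the 6 genes, their summed shares and their proportions), 0 held one. The search took the 6 nulls together. Where the null sets stood apart, their gap widened the range, so a lone library within a set could hardly be found.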
